A study of Mus musculus with 24 samples.

Results

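The cytosolic translation initiation factors (eIFs) and elongation factors (eEFs) were examined as 57 genes of the 19134 measured in both conditions. The members are the genes whose symbol starts with Eif or Eef followed by a digit. The eIF2α kinases (Eif2ak), the eIF4E-binding proteins (Eif4ebp), pseudogene symbols and the Y-linked Eif2s3y were left out, which removed 8 of 65 symbols. All 57 had a value in both conditions, and 54 passed a minimum on abundance in both, set at 5 ppm of the summed mean counts. Eef1a2, Eif4e1b and Eif4e3 did not pass it. The rule also takes in 3 enzymes that modify elongation factors (Eef1akmt1, Eef2k and Eef2kmt) and 3 proteins named for their relation to a factor (Eif1ad, Eif4enif1 and Eef1e1).

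E14, a mouse embryonic stem cell line, was profiled as poly(A) RNA in 24 libraries, 6 groups of 4. Wild type cells and 2 knockout lines, Smad2_KO1 and Smad2_KO2, were kept for 12 h on gelatin in medium with fetal bovine serum and LIF. They received either no INK128 (control) or 200 nM of this mTOR inhibitor (paused). Smad2 codes for a transcription factor that relays Nodal and activin signals. How the Smad2 lines were made is not given in the sources used here, and nothing in the labels says whether each line came from 1 clone. No label says that the 4 replicates were separate cultures, so the p-values measure the spread between these samples, which may be technical.

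The data analysed were the authors' 2 deposited tables of knockout against wild type, 1 for control and 1 for paused cells. Each gives a mean normalized count per gene, a log2 fold change, its standard error (SE) and an adjusted p from DESeq2. The values are summaries over libraries, so no level per library or per knockout line can be shown. A change is called here where the authors' deposited adjusted p is under 0.05. The numerator of the fold change is not named. It was read as knockout over wild type because the authors' deposited tables then give Smad2 at -0.35 (log2, SE 0.0704, adjusted p = 6.5e-06) in control and -0.63 (SE 0.0574, adjusted p = 4.1e-26) in paused cells. Smad2 transcripts thus remained at 0.786 and 0.646 of the wild type level, and whether the transcript left is functional was not measured.

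Translation begins when eIF2, bound to GTP and initiator tRNA, joins the small ribosomal subunit with eIF1, eIF1A, eIF3 and eIF5. eIF4E binds the mRNA cap, eIF4G bridges it to eIF3, and the helicase eIF4A with its partners eIF4B and eIF4H unwinds the leader so that the complex can scan to a start codon. eIF5B then joins the subunits, and eIF2B reloads eIF2 with GTP, the step that stress kinases block. During elongation eEF1A delivers aminoacyl-tRNA, the eEF1B subunits recharge eEF1A with GTP, and eEF2 moves the ribosome along the mRNA. mTOR promotes initiation by keeping the 4E-BP proteins off eIF4E. mRNAs with a 5′ terminal oligopyrimidine (TOP) tract, which code for ribosomal proteins and several of these factors, are the most sensitive to its inhibition. mTOR inhibition holds mouse embryonic stem cells in a paused state in which global translation is low.

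Some promoters of the family carry the E-box CACGTG, the letters that Myc proteins and related factors bind, and Eif4e is a textbook Myc target. The 250 bases before annotated transcription starts were available from RefSeq (GRCm38.p6) for 44 of the 57 members, with 58 such windows, since a gene can have several starts. The motif is its own reverse complement, so a match counts on both strands. It was present in any window of 11 of these 44 (25.0%) and of 9.20% of the 13624 genes with 1 or more (17309 windows). With the first listed window of each gene alone it was present in 9 members (20.5%) and 7.95% of genes. The 60 bases around it are shown 5′ to 3′ on the gene's strand, with the motif in capitals, for the cap-binding protein (Eif4e), its scaffold (Eif4g1), the helicase (Eif4a1), the translocase (Eef2) and the kinase that inactivates the translocase (Eef2k). They lie at chr3:138527177-138527236 (plus strand), chr16:20672646-20672705 (plus), chr11:69672580-69672639 (minus), chr10:81176561-81176620 (plus) and chr7:120842771-120842830 (plus).
Eif4e: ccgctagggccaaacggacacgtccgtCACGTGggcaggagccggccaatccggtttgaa
Eif4g1: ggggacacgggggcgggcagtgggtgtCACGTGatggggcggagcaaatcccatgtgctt
Eif4a1: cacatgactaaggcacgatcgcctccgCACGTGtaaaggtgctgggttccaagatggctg
Eef2: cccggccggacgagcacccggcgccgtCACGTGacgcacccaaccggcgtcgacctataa
Eef2k: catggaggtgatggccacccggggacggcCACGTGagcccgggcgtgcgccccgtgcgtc
The distance from the end of the motif to the start was 58 bases in Eif4e, 48 in Eif4g1, 183 in Eif4a1, 37 in Eef2 and 25 in Eef2k. The other 6 members with the motif were Eif1b, Eif3f, Eif3k, Eif4h, Eif5a and Eif5a2.

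In control cells most of the family was slightly lower in the Smad2 knockout. By the authors' deposited table, 34 members fell, 3 rose and 20 were not called. Of the 57 estimates 50 were below 0, and their median was -0.13 (log2), where the median of all genes was 0.00087. Of all genes 41.4% were called, 19.5% higher and 21.9% lower, against 5.26% of the members called higher and 59.6% called lower. The members are abundant, and abundant genes fell more often: past the minimum on abundance 51.6% of genes were called and 32.6% were lower. The median of these genes was -0.053, against -0.14 for the 54 members past the minimum. The falls were small. The median member called lower stood at 87.6% of wild type, and 28 of the 34 were above 80%. With either rescaling of the genotypes (equal summed counts, or the median of abundant genes at 0) 21 were called, 18 of them lower. That is 36.8% of the members, against 39.8% and 39.7% of all genes. The 16 falls that did not pass under rescaling were those of Eef1b2, Eef1g, Eef2, Eef2k, Eif2a, Eif2b2, Eif2s3x, Eif3a, Eif3b, Eif3e, Eif3h, Eif3l, Eif4b, Eif4g2, Eif4h and Eif5b, and the 3 rises passed. With the statistic divided by its middle spread over all genes, 2 were called, Eef1akmt1 and Eif4g3.

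In paused cells fewer members were called lower and more were called higher, and a difference between conditions was not tested for the family as a whole. The authors' deposited table called 25 members lower and 6 higher, with 39 of 57 estimates below 0 and a median of -0.044 (log2), against -0.0016 for all genes. Of all genes 42.6% were called, 20.5% higher and 22.0% lower. Of the members 10.5% were called higher and 43.9% lower. Past the minimum on abundance 53.0% of all genes were called and 32.8% were lower. The median of these genes was -0.047, close to the -0.056 of the 54 members past the minimum. The median member called lower stood at 90.3% of wild type. With both genotypes set to equal summed counts the split in paused cells became 15 lower and 8 higher. With the median of abundant genes at 0 it became 14 lower and 10 higher, and the median of the members turned to 0.0028. These are 40.4% and 42.1% of the members, against 41.1% and 40.9% of all genes. Members that gained a call, all higher, were Eif2d and Eif4a2 under both rescalings and Eif1a and Eif1ad with the median at 0. The falls of 14 members and all 6 rises passed under both rescalings. Those of Eef1a1, Eef1b2, Eif3b, Eif3c, Eif3k, Eif3l, Eif4b, Eif4enif1, Eif4g2, Eif5b and Eif6 did not pass under at least 1 of them. With the statistic divided by its middle spread 2 were called, Eif3i and Eif4g3.

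**Figure D1:**
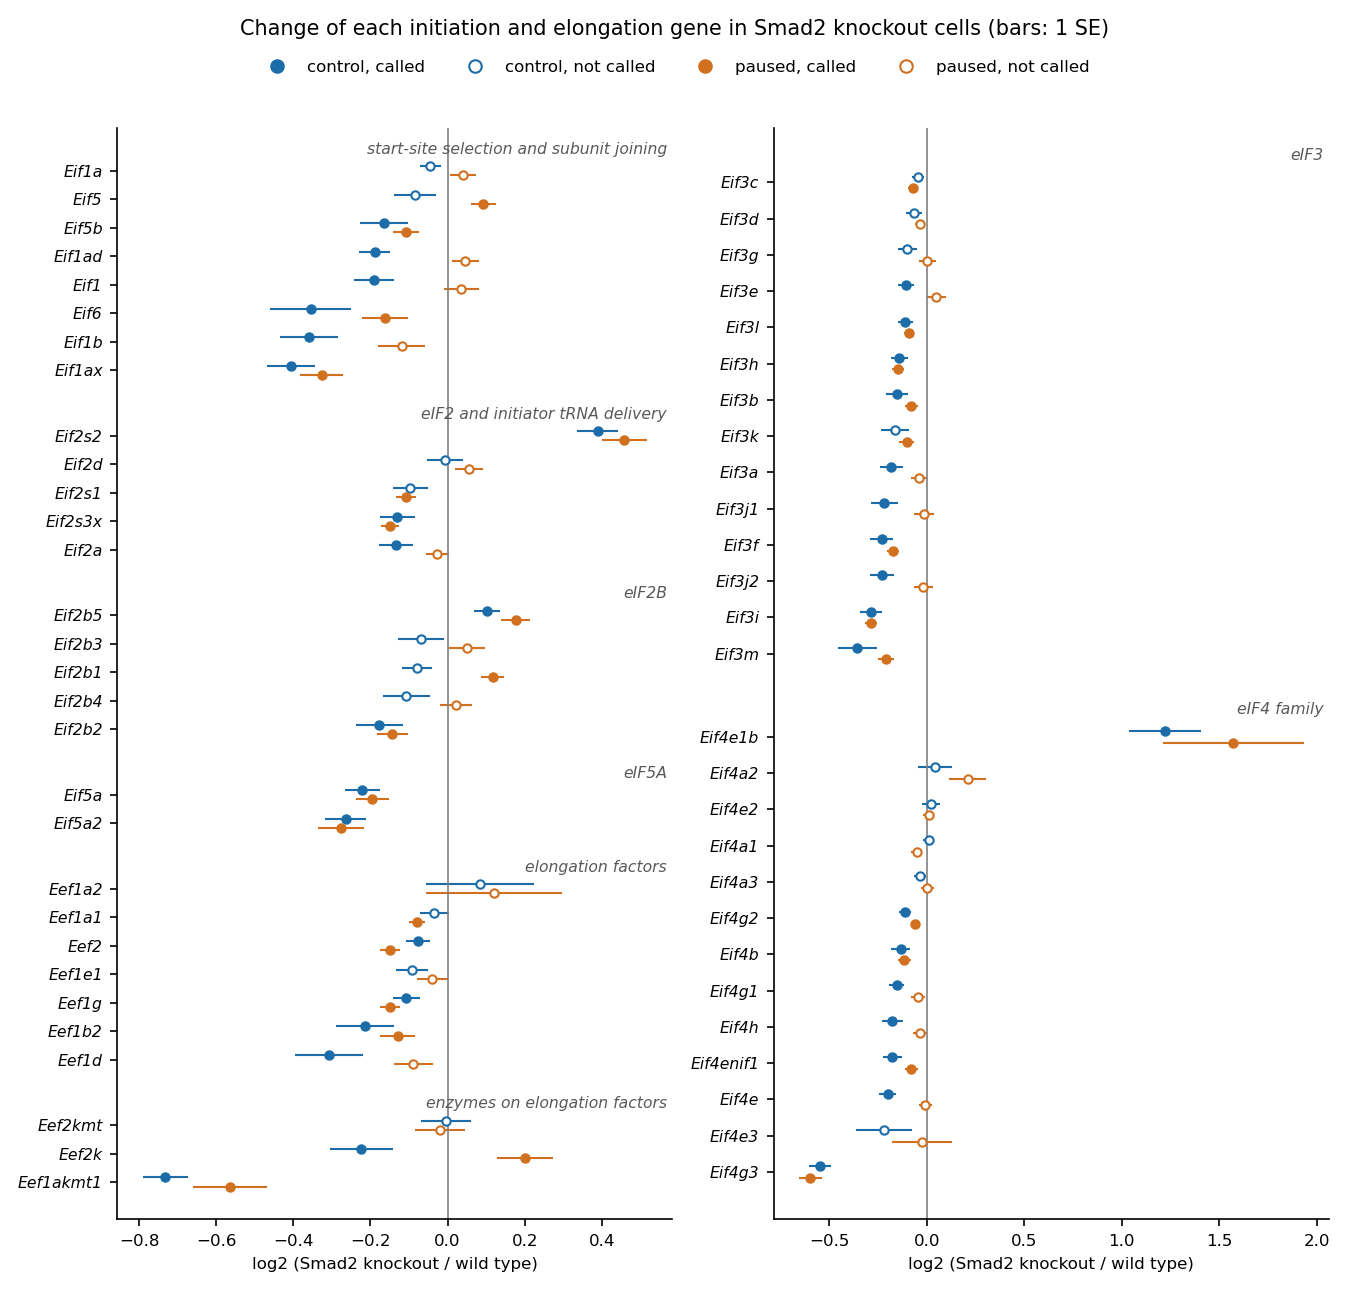
Log2 fold change of Smad2 knockout over wild type (axis in log2 units) for each of the 57 genes, grouped by role, in control and paused cells; points are the authors' deposited estimates and bars are 1 SE. Most points lie between -0.25 and 0. By the larger of a gene's changes in control and paused cells, Eif4e1b, Eef1akmt1, Eif4g3 and Eif2s2 lie farthest from 0.

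Across the 2 conditions, 21 members were called lower in both, 3 higher in both (Eif2s2, Eif2b5 and Eif4e1b) and 1, Eef2k, lower in control and higher in paused cells. A further 12 were called in control alone, 6 in paused cells alone and 14 in neither, that is 21.1%, 10.5% and 24.6%. Of all genes these shares were 11.9%, 13.4% and 44.2%, and past the minimum on abundance 13.1%, 15.0% and 35.5%. Lower in both were 36.8% of the members and higher in both 5.26%, against 22.9% and 13.4% of genes past the minimum. Opposite calls were 1.75% of the members and 0.162% of all genes. Of the 37 control calls 64.9% were also called in the same direction in paused cells, against 71.5% of the control calls over all 19134 genes and 73.1% over the 10484 past the minimum on abundance. By the labels control and paused cells are separate libraries, though the libraries that entered each table are not stated. Across the 57 genes, which are not independent, the deposited changes of control and paused cells had a Pearson r of 0.926 and a Spearman rho of 0.628, and r was 0.821 without Eif4e1b. Over the 10484 abundant genes r was 0.901 and rho 0.807.

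Among the genes grouped under start-site selection and subunit joining, with Eif1ad counted, the authors' deposited table called 6 of 8 lower and 0 higher in control cells. In paused cells it called 3 lower and 1 higher. Lower calls were thus 75.0% and 37.5% of these genes, against 32.6% and 32.8% of genes past the minimum on abundance. Eif1ax and Eif1a code for eIF1A, which opens the small subunit for scanning. Eif1ax, on the X chromosome, fell in the authors' deposited tables to 75.4% of wild type in control (log2 -0.41, SE 0.0618, adjusted p = 9.09e-10) and 79.7% in paused cells (-0.33, SE 0.0559, adjusted p = 5.86e-08). Its paralog Eif1a stood at -0.044 (SE 0.0267, adjusted p = 0.178) and 0.040 (SE 0.0337, adjusted p = 0.36) in those tables. The X-linked copy therefore fell in both conditions, and the autosomal copy was called in neither as deposited. With the median of abundant genes at 0, Eif1a (0.087, adjusted p = 0.0275) and Eif1ad (0.093, adjusted p = 0.0252) passed as higher in paused cells. Eif6, a ribosome anti-association factor, fell by 0.355 (SE 0.105, adjusted p = 0.00297) and by 0.163 (SE 0.0595, adjusted p = 0.0178) in the authors' deposited tables. Eif1 and Eif1b code for near relatives that guard against wrong start codons. The authors' deposited control table put Eif1 at -0.19 (SE 0.0519, adjusted p = 0.001) and Eif1b at -0.36 (SE 0.0749, adjusted p = 1.23e-05). In the authors' deposited paused table neither passed, with Eif1 at 0.035 (SE 0.0452) and Eif1b at -0.12 (SE 0.0615). Eif5b, the GTPase of subunit joining, was called lower in both, at 89.2% and 92.8% of wild type, by the authors' deposited tables. Neither call passed under both rescalings, nor did that of Eif6 in paused cells, and the calls of the role in control became 5 lower and 0 higher. In paused cells they became 1 lower and 1 higher with equal summed counts, and 1 lower and 3 higher with the median of abundant genes at 0. Eif5, which activates GTP hydrolysis by eIF2, was at -0.085 (SE 0.0535, adjusted p = 0.203) in the authors' deposited control table and rose to 107% of wild type (log2 0.093, SE 0.0335, adjusted p = 0.0158) in the paused one.

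Of the 3 subunits of eIF2, 1 rose. Eif2s2, which codes for eIF2β, rose in the authors' deposited tables to 131% of wild type in control (log2 0.39, SE 0.0534, adjusted p = 8.08e-12) and 137% in paused cells (0.46, SE 0.0593, adjusted p = 2.66e-13). Eif2s3x, the X-linked gene for eIF2γ, fell to 91.4% (adjusted p = 0.0114) and 90.2% (adjusted p = 1.35e-09) by the authors' deposited tables. Its control call did not pass with equal summed counts (-0.075, adjusted p = 0.176) or the median of abundant genes at 0 (-0.077, adjusted p = 0.164). Eif2s1, which codes for eIF2α, the subunit that stress kinases phosphorylate, was at 93.5% (adjusted p = 0.0752) and fell to 92.8% (adjusted p = 0.000187). The gain of Eif2s2 is the largest rise among members past the minimum on abundance, at mean counts of 47624 in control and 46750 in paused cells. Of the 50-base stretches of its longest coding transcript 27.8% also occur in another gene, the largest share in the locus Gm9892, so part of its reads may be split between copies. Eif2a and Eif2d code for factors that can bring initiator tRNA without eIF2. By the authors' deposited tables Eif2a fell in control cells, to 91.1% (adjusted p = 0.00785), and Eif2d was called in neither condition. The call of Eif2a did not pass under either rescaling (adjusted p = 0.145 and 0.135), while Eif2d in paused cells passed as higher under both (0.091, adjusted p = 0.0339, and 0.10, adjusted p = 0.0149).

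Of the 5 subunits of eIF2B, the exchange factor of eIF2, the authors' deposited tables called Eif2b5 higher and Eif2b2 lower in both conditions. Eif2b5, the catalytic ε subunit, rose to 107% (log2 0.10, SE 0.0338, adjusted p = 0.00769) and 113% (0.18, SE 0.0379, adjusted p = 2.08e-05) of wild type. Eif2b2, the β subunit, fell to 88.5% (adjusted p = 0.0104) and 90.5% (adjusted p = 0.0016), and its control call did not pass under either rescaling (adjusted p = 0.0936 and 0.0883). Eif2b1, the α subunit of the regulatory core, was at -0.079 (SE 0.039, adjusted p = 0.0909) in the authors' deposited control table and rose by 0.117 (SE 0.0297, adjusted p = 0.000377) in the paused one. Eif2b3 and Eif2b4 were called in neither.

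eIF3 is the scaffold of the scanning complex and the largest of the factors. All 14 of its genes had estimates below 0 in the authors' deposited control table, with 10 called lower, 0 higher and a median of -0.16 (log2). The paused calls were 8 lower and 0 higher, with 12 estimates below 0 and a median of -0.074. Lower calls were 71.4% (control) and 57.1% (paused) of these genes, against 32.6% and 32.8% of genes past the minimum on abundance. Under either rescaling the calls fell to 5 in control (Eif3f, Eif3i, Eif3j1, Eif3j2 and Eif3m, with 13 estimates below 0) and to 4 in paused cells (Eif3f, Eif3h, Eif3i and Eif3m). Of the 14 genes 35.7% in control and 28.6% in paused cells were then called, all of them lower. Of all genes 39.8% or 39.7% in control and 41.1% or 40.9% in paused cells were called, but these count rises and falls together. The share of all genes called lower under the rescalings is not given here, so the eIF3 falls cannot be ranked against it. In paused cells 9 estimates were then below 0 with equal summed counts and 8 with the median of abundant genes at 0, with medians of -0.039 and -0.027. The largest fall in control was that of Eif3m, at 78.2% of wild type in control (log2 -0.36, SE 0.101, adjusted p = 0.00192) and 86.6% in paused cells (-0.21, SE 0.0422, adjusted p = 5.96e-06) by the authors' deposited tables. Its transcript shares 37.3% of its 50-base stretches with Gm7658, and the gene overlaps Ccdc73 on the other strand. Eif3i, with the largest fall in paused cells, fell in both, to 82.2% (adjusted p = 3.68e-06) and 82.1% (adjusted p = 1.36e-18). Eif3f fell to 85.2% (adjusted p = 0.000352) and 88.7% (adjusted p = 1.16e-07). Eif3a, the largest subunit and the most abundant of the 14 by mean count, fell in control (88.1%, adjusted p = 0.00646) and was at 97.3% (adjusted p = 0.451) in paused cells. Eif3j1 and Eif3j2, near-identical copies of a loosely bound subunit, stood at 86.0% and 85.2% in the authors' deposited control table (adjusted p = 0.00612 and 0.000819) and at 99.2% and 98.8% in the paused one. They share 90.8% of the 50-base stretches of the Eif3j2 transcript, so their values cannot be taken as separate measurements. Eif3d and Eif3g were called in neither condition.

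The eIF4 family holds the cap-binding proteins, their scaffolds and the helicases. With Eif4enif1 counted, the authors' deposited tables called 7 of 13 lower and 1 higher in control, and 4 lower and 1 higher in paused cells. The lower calls were 53.8% and 30.8% of the 13, against 32.6% and 32.8% of genes past the minimum on abundance. The paused share was thus no higher than that of abundant genes. Under either rescaling 4 were lower in control (Eif4e, Eif4enif1, Eif4g1 and Eif4g3), and in paused cells Eif4g3 was the only fall that passed under both. Eif4g3, 1 of 3 eIF4G scaffolds, had the largest fall among the factors themselves. It stood at 68.4% of wild type in control (log2 -0.55, SE 0.057, adjusted p = 4.67e-20) and 66.2% in paused cells (-0.60, SE 0.0582, adjusted p = 8.43e-23). Eif4g1, the main scaffold, fell in control, to 89.8% (log2 -0.15, SE 0.0391, adjusted p = 0.000393), and was at 97.0% (adjusted p = 0.308) in paused cells. Eif4g2, which lacks the eIF4E-binding site, fell to 92.6% (adjusted p = 0.00128) and 95.9% (adjusted p = 0.00975). By mean count per kb of the longest coding transcript, Eif4g3 was the least abundant of these scaffolds, at 526 in control against 8946 for Eif4g1 and 11917 for Eif4g2.

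The helicase genes were not called in either condition as deposited. In the authors' deposited tables Eif4a1 was at 0.0096 (log2, SE 0.0296, adjusted p = 0.827) in control and -0.052 (SE 0.0266, adjusted p = 0.105) in paused cells. Eif4a2 was at 0.042 (SE 0.0877) and 0.21 (SE 0.094, adjusted p = 0.0588), and Eif4a3, a helicase of the exon junction complex, at -0.033 (SE 0.032) and 0.0032 (SE 0.0348). Eif4a2 in paused cells passed as higher with equal summed counts (0.24, adjusted p = 0.0252), with the median of abundant genes at 0 (0.26, adjusted p = 0.0183) and among genes past the minimum on abundance (adjusted p = 0.0488). Eif4a1 shares 65.3% of its 50-base stretches with other genes, most with Eif4a-ps4. Their partner Eif4b was called lower in both deposited tables, at 91.1% (adjusted p = 0.0134) and 92.4% (adjusted p = 0.00104) of wild type. In control it was at -0.078 (adjusted p = 0.177) with equal summed counts and -0.080 (adjusted p = 0.166) with the median of abundant genes at 0. Eif4h fell in control, to 88.5% (adjusted p = 0.00488), and was at 97.6% (adjusted p = 0.439) in paused cells.

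Among the cap-binding relatives, Eif4e fell in the authors' deposited control table to 87.1% of wild type (log2 -0.20, SE 0.0425, adjusted p = 1.96e-05) and was at 99.6% (-0.0065, SE 0.0352, adjusted p = 0.904) in the paused one. Eif4enif1, the transporter of eIF4E, fell to 88.5% (adjusted p = 0.00154) and 94.7% (adjusted p = 0.0417). Eif4e2, a cap-binding repressor, was at 101% in both and not called, and Eif4e3 was not called. Eif4e1b, a relative known from oocytes, had the largest rise of the family. Its fold was 2.33 in control (log2 1.22, SE 0.184, adjusted p = 6.73e-10) and 2.97 in paused cells (1.57, SE 0.362, adjusted p = 8.01e-05) in the authors' deposited tables. This was at mean counts of 101 and 22.0, the latter the lowest of any member.

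Both eIF5A genes, whose protein relieves ribosomes stalled at proline stretches, fell in both conditions. In the authors' deposited tables Eif5a stood at 85.8% (log2 -0.22, SE 0.0456, adjusted p = 9.81e-06) in control and 87.3% (-0.20, SE 0.0427, adjusted p = 3.09e-05) in paused cells. Eif5a2 stood at 83.2% (-0.26, SE 0.0526, adjusted p = 4.38e-06) and 82.6% (-0.28, SE 0.0602, adjusted p = 2.93e-05). The paralogs fell by similar amounts at very different levels: per kb, the mean count was 32335 for Eif5a and 168 for Eif5a2 in control cells.

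Of the 7 genes grouped as elongation factors, with Eef1e1 counted, the authors' deposited tables called 4 lower and 0 higher in each condition. That is 57.1%, against 32.6% and 32.8% of genes past the minimum on abundance. Under either rescaling Eef1d passed in control, and Eef1g and Eef2 in paused cells. Eef2, the translocase, fell to 94.9% (log2 -0.076, SE 0.0316, adjusted p = 0.0413) in control and 90.2% (-0.15, SE 0.026, adjusted p = 9.74e-08) in paused cells. Rescaling took its control value to -0.021 (adjusted p = 0.639) or -0.022 (adjusted p = 0.607). Eef1a1, the most abundant member, was at 97.6% (-0.035, SE 0.0379, adjusted p = 0.49) and fell to 94.7% (-0.079, SE 0.0198, adjusted p = 0.000337). Eef1b2 and Eef1g, subunits of the exchange factor of eEF1A, were called lower in both deposited tables, at between 86.2% and 92.8% of wild type. With equal summed counts Eef1b2 passed in neither (adjusted p = 0.0832 and 0.0882) and Eef1g not in control (adjusted p = 0.251). Eef1d, a further subunit, fell in control, to 80.8% (adjusted p = 0.00198), and was at 94.0% (adjusted p = 0.146) in paused cells. Eef1e1, a multisynthetase complex protein, and Eef1a2, the eEF1A form of muscle and neurons, were called in neither. Eef1a2 was close to absent, with mean counts of 105 and 50.7 against 454855 and 593767 for Eef1a1. Eef1a1 shares 59.2% and Eef1g 64.3% of the 50-base stretches of their transcripts with other genes, so their counts depend on how such reads were assigned.

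Of the enzymes acting on elongation factors, Eef1akmt1, a lysine methyltransferase of eEF1A, had the largest fall of all members in control cells, and the second largest after Eif4g3 in paused cells. The authors' deposited tables put it at 60.2% of wild type in control (log2 -0.73, SE 0.0588, adjusted p = 2.84e-33) and 67.6% in paused cells (-0.56, SE 0.0962, adjusted p = 4.87e-08), at mean counts of 1222 and 594. Eef2k, the kinase that phosphorylates and so inhibits eEF2, fell in control (85.6%, log2 -0.22, SE 0.0818, adjusted p = 0.0179) and rose in paused cells (115%, 0.20, SE 0.0718, adjusted p = 0.015). Its fall in control did not pass with equal summed counts (-0.17, adjusted p = 0.0863) or with the median of abundant genes at 0 (-0.17, adjusted p = 0.0826), and its rise in paused cells passed under both. Eef2kmt, which methylates eEF2, was called in neither (99.7% and 98.7%).

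Whether the knockout effect differed between conditions was tested as the paused change minus the control change, over the root of the summed squared SEs, with a two-sided normal p adjusted (Benjamini-Hochberg) over the 19134 shared genes. Of the members 4 (7.02%) were called, as were 1.44% of all genes, and all 4 changes were more positive in paused cells. With genes under the minimum on abundance left out, 5 of 54 members (9.26%) were called, as were 2.93% of genes. Eef2k differed by 0.43 (log2, SE 0.109, adjusted p = 0.0142), Eif1ad by 0.24 (SE 0.0545, adjusted p = 0.00428), Eif2b1 by 0.20 (SE 0.049, adjusted p = 0.0106) and Eif4e by 0.19 (SE 0.0552, adjusted p = 0.0371). Eif1ad, an eIF1A-like protein, was at 87.7% of wild type in the authors' deposited control table (adjusted p = 2.84e-05) and at 103% (adjusted p = 0.307) in the paused one. With equal summed counts the adjusted p of Eif4e was 0.0764, and 0 of the 4 passed with the statistic divided by its middle spread.

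Beyond these, 44 of the 57 differences were above 0, as were 9817 of the 19134 over all genes. The median was 0.073 (log2) for the members against 0.0056 for all genes. With equal summed counts 15 members were below 0, instead of 13, and the medians were 0.053 and -0.014. With the median of abundant genes at 0 these medians were 0.067 and -0.00072. An unadjusted p under 0.05 was reached by 15 members (26.3%), all 15 above 0. Of all genes 12.9% reached it, 6.66% with a difference above 0. The 11 that did not pass adjustment include Eif1 (0.23, SE 0.0688, adjusted p = 0.0593), which passed when genes under the minimum on abundance were left out (adjusted p = 0.0398), and Eif5 (0.18, SE 0.0631, adjusted p = 0.138). For members with large effects in both conditions the difference was not called. It was 0.17 (SE 0.113) for Eef1akmt1, 0.35 (SE 0.406) for Eif4e1b, -0.047 (SE 0.0814) for Eif4g3 and 0.070 (SE 0.0798) for Eif2s2. A p that misses the threshold does not show that these effects were equal.

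**Figure D2:**
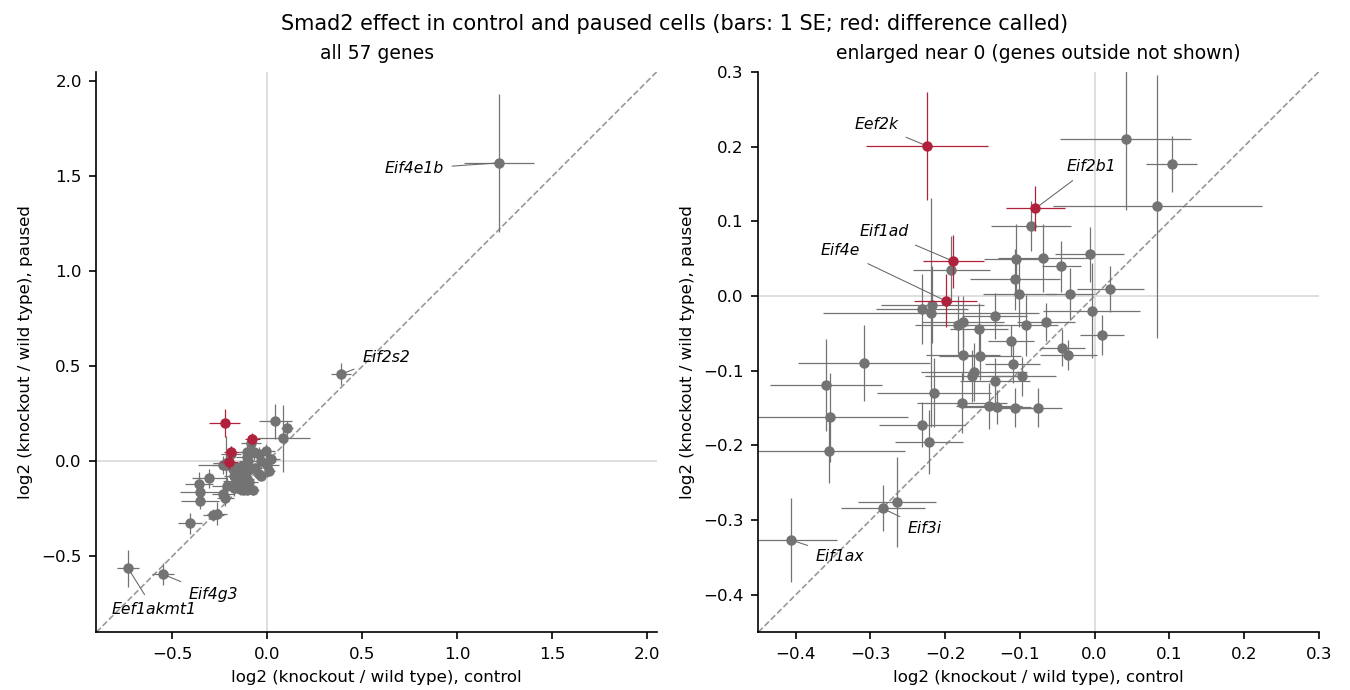
Log2 fold change of Smad2 knockout over wild type in control cells (x axis) against paused cells (y axis) for the 57 genes, with bars of 1 SE and the line of equal change dashed; the right panel enlarges the range near 0 and red marks the 4 genes whose difference was called. Of the 57 points 44 lie above the line (over all genes 9817 of 19134 would), and Eef2k is the red point farthest from it.

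The E-box and the TOP tract cut across these roles. In the authors' deposited control table the 11 members with CACGTG had a median of -0.20 (log2), with 9 lower and 0 higher. The 33 with a window but no match had a median of -0.11, with 16 lower and 2 higher. In paused cells the medians were -0.10 (5 lower, 1 higher) and -0.035 (14 lower, 4 higher). Past the minimum on abundance 32.6% (control) and 32.8% (paused) of all genes were lower as deposited. The matching shares under the rescalings are not given here. Under either rescaling the lower calls in control became 6 of 11 and 7 of 33. In paused cells they became 4 of 11, with medians of -0.067 and -0.055, and 7 or 6 of 33 (6 or 7 higher), with medians of 0.00030 and 0.012. The 10 members known as TOP mRNAs (Eef1a1, Eef1b2, Eef1d, Eef1g, Eef2, Eif3a, Eif3e, Eif3f, Eif3h and Eif4b) had medians of -0.14 and -0.12. Of these, 9 were called lower in control, all but Eef1a1, and 7 in paused cells, with 0 called higher. Under either rescaling 2 of these calls passed in control (Eef1d and Eif3f), and in paused cells 5 with equal summed counts and 4 with the median of abundant genes at 0. The 86 cytosolic ribosomal protein genes, the other large TOP class, had medians of -0.13 (39 lower, 3 higher) and -0.11 (55 lower, 3 higher) in the authors' deposited tables. Their lower calls became 9 in control under either rescaling, and 41 or 26 in paused cells.

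Across conditions a level can be followed only as a gene's share of the summed mean counts of its table, averaged over genotypes, and carries no error. The tables were normalized separately, which such a share does not depend on, and which libraries entered each mean is not stated. The 57 members made up 3.45% of the summed means in control and 3.92% in paused cells. Most single members held a smaller share when paused: of the 54 past the minimum 21 had a larger share, and the median log2 ratio was -0.11. Of the 10484 genes past the minimum 55.3% had a larger share, with a median of 0.057. The family total was larger in paused cells all the same, as its most abundant TOP mRNAs held larger shares. Eef1a1 went from 9877 to 13404 ppm (ratio 1.36) and Eef2 from 2750 to 4845 (1.76).

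Eif4a2 (1.84), Eif4b (1.74) and Eif3a (1.29) were also at a larger share in paused cells. In contrast Eif5a (0.577), Eef1d (0.582), Eif6 (0.649) and Eif4a1 (0.698) were at a smaller one. The helicase paralogs went in opposite directions and so came closer in share, with Eif4a1 going from 2283 to 1593 ppm and Eif4a2 from 472 to 869. The TOP members were themselves mixed, 6 of 10 at a larger share, so the label does not describe a common shift. Eef1akmt1 had the smallest ratio among members past the minimum (0.506).

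**Figure D3:**
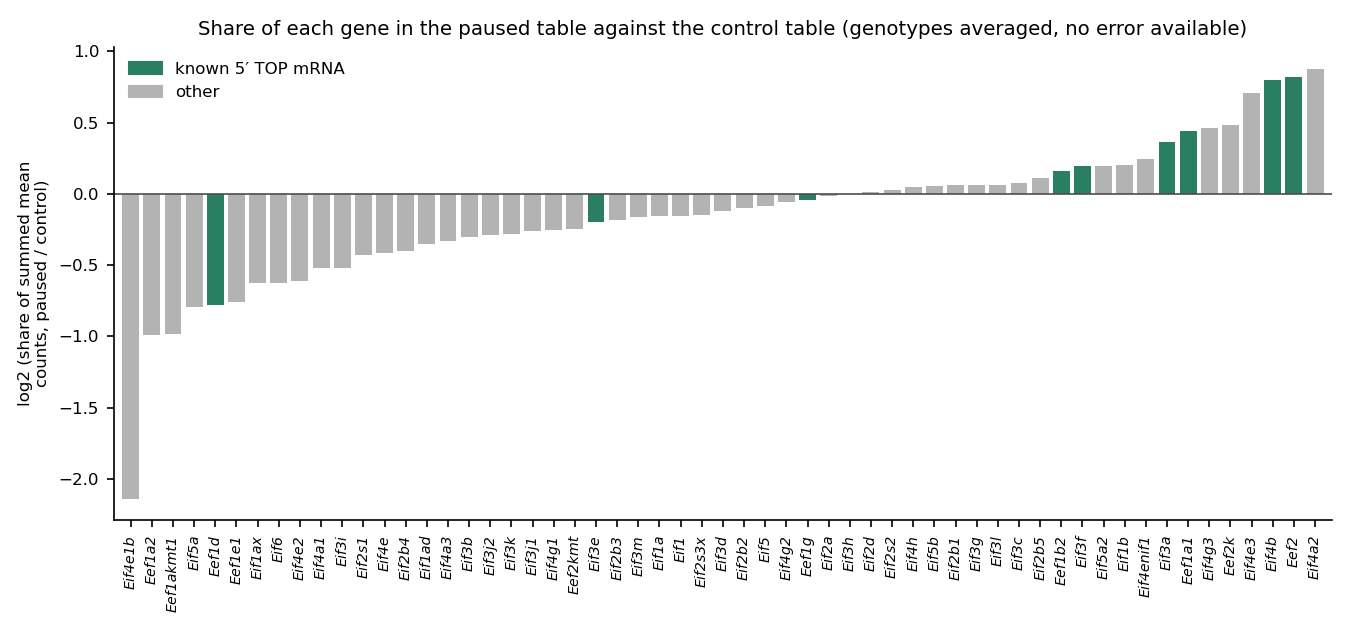
Share of each gene in the summed mean counts of its table, as the ratio of paused over control on a log2 axis, for all 57 genes. The values are averages over genotypes and have no error bar. Eef1a2, Eif4e1b and Eif4e3, which did not pass the minimum on abundance, are drawn as well. Eif4a2, Eef2 and Eif4b lie highest. Eif4e1b (-2.14) and Eef1a2 (-0.99) lie lowest, followed by Eef1akmt1 (-0.98), with Eif5a and Eef1d also among the lowest.

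By level per kb, that is mean normalized count over the length of the longest coding transcript (GENCODE M21), Eef1a1 stood highest in both conditions, at 253542 in control and 330974 in paused cells. Eif4a1 followed in control at 59264 and Eef2 in paused cells at 69480. The eIF3 genes other than Eif3j1 and Eif3j2 lay between 4751 (Eif3f) and 11293 (Eif3k) in control, a far narrower range than the family as a whole. The lowest levels were those of Eif4e3 in control (28.3) and of Eif4e1b in paused cells (10.3).

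**Figure D4:**
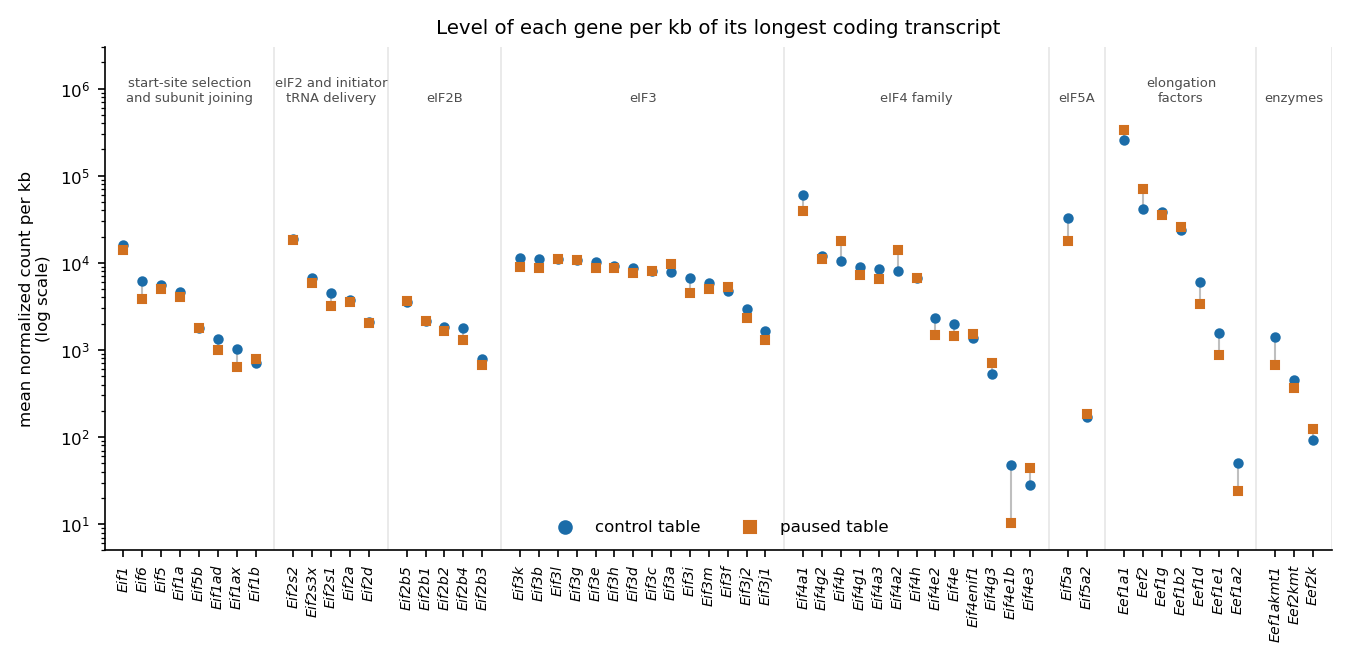
Mean normalized count per kb of the longest coding transcript (log scale, y axis) for each of the 57 genes, ordered within each role by the control level; circles are the control and squares the paused table, each a mean over libraries with no error bar. Eef1a1 stands above all others, the eIF3 genes other than Eif3j1 and Eif3j2 form a narrow band, and Eif4e1b, Eif4e3 and Eef1a2 lie at the bottom.

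Genes that act on or beside these factors were mixed. As deposited, 32.6% (control) and 32.8% (paused) of genes past the minimum on abundance were called lower, and the deposited counts can be read against these shares. The matching shares under the rescalings are not given here, so the rescaled counts of these lists have no such share beside them. Of 17 kinases, 4E-BPs and other regulators, the authors' deposited tables called 5 higher and 5 lower in control, and 4 higher and 6 lower in paused cells. Larp1, the repressor that binds TOP mRNAs, fell to a fold of 0.792 (log2 -0.34, SE 0.0442, adjusted p = 8.55e-13) and 0.827 (-0.27, SE 0.0258, adjusted p = 1.32e-24). Eif4ebp1 (4E-BP1) rose by 0.14 (log2, SE 0.0414, adjusted p = 0.00327) and 0.29 (SE 0.0457, adjusted p = 1.89e-09), and Pdcd4, an inhibitor of eIF4A, by 0.26 (SE 0.0884, adjusted p = 0.0104) and 0.17 (SE 0.0492, adjusted p = 0.00171). Eif2ak3, the eIF2α kinase of the endoplasmic reticulum, rose in control (1.18, adjusted p = 7.99e-07) and was at 1.02 (adjusted p = 0.467) when paused, a difference of -0.21 (SE 0.058, adjusted p = 0.0298). Eif4ebp2 differed the other way, by 0.22 (SE 0.0437, adjusted p = 0.000463), and was named after its value was seen.

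Of 26 genes of poly(A)-binding proteins, termination, recycling and reinitiation, the authors' deposited tables called 14 lower and 2 higher in control, and 10 lower and 3 higher in paused cells. Paip1, a poly(A)-binding protein partner, fell to folds of 0.692 (adjusted p = 1.12e-16) and 0.773 (adjusted p = 5.16e-14), and Pelo, a ribosome rescue factor, to 0.770 (adjusted p = 2.97e-11) and 0.881 (adjusted p = 0.00114). Denr and Mcts1 code for a reinitiation pair. Mcts1 fell in both (0.796 and 0.816), and Denr fell in control (0.780, adjusted p = 0.000636) and was at 0.987 (adjusted p = 0.833) when paused. Of 22 tRNA synthetase and complex genes, 8 were lower and 1 higher in control, and 7 lower and 3 higher in paused cells. Of 9 mitochondrial translation factors, 3 (33.3%) and 5 (55.6%) were lower and 0 higher in the authors' deposited tables. With either rescaling these became 2 and 2. The synthetase calls became 5 lower and 2 higher in control, and 4 or 3 lower and 4 higher in paused cells. The calls on the 26 poly(A) and termination genes became 11 lower in control and 6 or 5 lower in paused cells, and those on the 17 regulators 2 and 4 lower, with 5 higher in each condition. The difference was called for 1 poly(A) gene, Pabpc4 (0.33, SE 0.061, adjusted p = 0.000101), and 1 synthetase gene, Vars (0.26, SE 0.0673, adjusted p = 0.0169), also named after their values were seen.

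Marker genes were read in the same tables, where 19.5% of all genes were called higher and 21.9% lower in control, and 20.5% and 22.0% in paused cells. The 8 embryonic stem cell markers were abundant (summed mean counts 229819 in control and 202822 in paused cells). Of these, 1 rose and 2 fell in control, and 1 rose and 1 fell in paused cells. The 6 primitive endoderm markers all rose in the knockout in both conditions, with medians of 1.27 and 1.28 (log2) at summed means of 1011 and 1788. Only 1 of the 6, Dab2, passed the minimum on abundance in both conditions, with rises of 0.66 in control and 0.62 in paused cells. Of 6 trophoblast markers 2 rose and 2 fell in control, and 2 rose and 1 fell in paused cells. Among 5 fibroblast markers 3 fell in each condition, and of 6 neuronal markers 1 rose and 3 fell in control and 2 rose and 3 fell in paused cells. The part of these shifts in the values above was not tested, and in bulk RNA fewer cells of a type cannot be told apart from less RNA per cell.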

How the data were processed

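Per the labels' protocols, RNA came from 50000 live cells per sample, and directional libraries were made after mRNA selection. The submitters' processing notes list FastQC, Trim Galore, HISAT2, featureCounts, DESeq2 and the build mm10, with no versions. The authors deposited 2 results tables. Per the file headers these hold the mean normalized count, a signal value averaged by the authors over libraries that are not stated. The authors also deposited a log2 fold change with its SE on the log2 scale, from DESeq2. The deposited test statistic is a score, with the p-value and adjusted p-value that the authors derived from it. It equalled the change over its SE, and deposited adjusted p-values differed by at most 0.852 percent from a recomputed Benjamini-Hochberg adjustment. Depth per library is unknown, and SEs are the only precision: the median over members was 0.0526 in control and 0.0379 in paused cells.

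Count tests planned for values per library could not be run. The difference test was checked on simulated data, but the outcome of that check is not given here, so no result rests on it. Constant shifts per table (equal summed counts, taking 8 of 12 libraries of a condition as knockout, or the median of abundant genes at 0) moved values by 0.055 and 0.053 in control and 0.035 and 0.047 in paused cells. Other alternatives were a threshold of 0.01, a null hypothesis that allows changes up to 1.2-fold, the minimum on abundance (230 and 221 normalized counts), the statistic divided by its middle spread (2.76, 2.80 and, for the difference, 1.23 times that of a standard normal) and the members without the enzymes and 3 other symbols. Transcript lengths, coordinates and shared 50-base stretches came from GENCODE M21 (GRCm38), and promoters from RefSeq. Full values are given for members called for the difference, the largest changes per role, the most and least abundant, and paralogs. Of other lists at most 4 called genes each are given, besides Eif4ebp2, Pabpc4 and Vars, which were named after their values were seen. Members and lists were chosen with earlier results of these data known. Python 3.11.15, numpy 2.4.6, scipy 1.17.1 and pandas 2.3.3 were used.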

Additional observations from a re-analysis of the deposited data

Results flagged for a closer look

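For 4 members the Smad2 effect differed between control and paused cells by the test of the difference, each more positive when paused. That is 7.02% of the members, against 1.44% of all genes. The differences (log2, paused minus control) were 0.425 for Eef2k, 0.235 for Eif1ad, 0.196 for Eif2b1 and 0.193 for Eif4e. Eef2k changed direction between conditions with a call in each by the authors' deposited tables, but its control call did not pass with equal summed counts (adjusted p = 0.0863) or the median of abundant genes at 0 (adjusted p = 0.0826). The difference of Eif4e did not pass with equal summed counts (adjusted p = 0.0764), and none of the 4 passed with the statistic divided by its middle spread or when changes up to 1.2-fold were allowed under the null. Eif4e and Eif1ad were called lower in control alone, and Eif2b1 was called higher in paused cells alone. No explanation was tested.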

How the results depend on the processing

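The count of members called fell most when changes up to 1.2-fold were allowed under the null and when the statistic was divided by its middle spread. In control cells 37 calls (34 lower, 3 higher) became 3 (2 lower, 1 higher) and 2 (2 lower, 0 higher). These are 5.26% and 3.51% of the members, against 10.6% and 1.48% of all genes. In paused cells 31 calls (25 lower, 6 higher) became 4 (2 and 2) and 2 (2 and 0), that is 7.02% and 3.51%, against 10.6% and 2.25% of all genes. The 4 differences became 0 under either setting, where 15 had an unadjusted p under 0.05 as deposited, and 1 with an adjusted p under 0.01. With equal summed counts or the median of abundant genes at 0, control cells had 21 calls, 18 of them lower, with medians of -0.079 and -0.080. In paused cells 15 and 14 were lower, 8 and 10 higher, with medians of -0.0090 and 0.0028. The lower share of calls thus went from 91.9% to 85.7% in control and from 80.6% to 65.2% and 58.3% in paused cells.

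Eef1akmt1 and Eif4g3 in control and Eif4g3 in paused cells were called under all 6 settings, and no difference was. Values not called as deposited crossed 0 under the shifts (equal summed counts, then median at 0). In control they were Eef1a1 0.020 and 0.019, Eef2kmt 0.052 and 0.050, Eif1a 0.011 and 0.0091, Eif2d 0.049 and 0.047, Eif3c 0.012 and 0.010, and Eif4a3 0.022 and 0.020. In paused cells they were Eef2kmt 0.016 and 0.028, Eif2a 0.0086 and 0.020, Eif3d 0.00030 and 0.012, Eif3j1 0.024 and 0.036, Eif3j2 0.018 and 0.030, Eif4e 0.029 and 0.041, Eif4e3 0.013 and 0.025, and Eif4h 0.00068 and 0.012. With the median at 0 only, Eef1e1 was at 0.0077, Eif3a at 0.0083 and Eif4g1 at 0.0028. Without the enzymes and 3 other symbols 33 and 28 calls were made. No paired analysis was possible because the tables hold no values per library, and leaving out a replicate was not run for that reason. The SE limits what can be seen: Eif4e1b, at mean counts of 101 and 22.0, has the widest errors.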
